A study of Medicago sativa with 24 samples.

Results

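TC177538 is a transcript of leaves that the supplementary annotation of the study lists as a homolog of homocysteine S-methyltransferase of *M. sativa*, with a match over the complete protein. It is 1 gene of the 41527 that were measured on the arrays. The gene was chosen on measured values of these arrays, namely its low intensity in the 4x hybrids compared with the parents and its spread among the 2x sibs, so the differences between hybrids and parents and among the 2x sibs are given below as a description without a test. The difference between the parents and those among the 4x sibs were not named in that choice and were tested. Their arrays did enter it, so these tests are not independent of the choice.

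The material consisted of 3 tetraploid full sibs (S29-4x, S48-4x, S60-4x), 3 diploid full sibs (S8-2x, S16-2x, S24-2x) and the diploid parents of both, PG-F9 and 12P. PG-F9, of *M. sativa* subsp. *falcata*, was the seed parent and forms 2n eggs, while 12P, selected from *coerulea* and *falcata* material, was the pollen parent and forms 2n pollen. The 4x hybrids arose where gametes of both kinds met, so that hybrids of both ploidy levels share the same cross and differ from each other by segregation as well as by ploidy. All plants were propagated by cuttings and grown untreated in a screen house, and each genotype had 3 replicates, each a bulk of young leaves from a pair of clones hybridized to 1 NimbleGen array. Each genotype is thus a single clone, and its replicates measure the spread between plants of that clone, not between plants of a class.

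Homocysteine S-methyltransferase regenerates methionine in plants by moving a methyl group to homocysteine, typically from S-methylmethionine. S-methylmethionine is itself made from methionine and is known as a form in which plants store reduced sulfur and move it in the phloem, and both reactions together form the S-methylmethionine cycle. Methionine is the precursor of S-adenosylmethionine (SAM), the methyl donor of DNA, histone and small-molecule methyltransferases and the starting point of ethylene synthesis. The arrays carry probes designed on *M. truncatula* sequences. Intensities were deposited on the linear scale after normalization between arrays, and the log2 of the intensity is used below for means and differences, so that a log2 difference of 1 is a doubling.

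The transcript was low in every 4x hybrid. The intensities were 271, 333 and 406 in S29-4x, 96.8, 260.4 and 202 in S48-4x, and 165, 224 and 201 in S60-4x, in the order of the replicates. All 9 arrays lay between 96.8 and 406, with a median of 224. The lowest of them, S48-4x replicate 1, was 1.20 times the highest negative control of its own array, whereas the other 4x arrays were between 2.03 and 5.37 times theirs. This value is therefore close to background, and the distance of S48-4x from the other genotypes is less certain than those of S29-4x and S60-4x.

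The 2x hybrids did not share a level. S8-2x had intensities of 221, 322 and 257, within the range of the 4x arrays. S24-2x had 583, 698 and 450.4, above every 4x array and below every parental one. S16-2x had 1029, 1163 and 3015, and its replicate 3 was the highest of the 24 arrays. Full sibs of the same ploidy level thus ranged from the level of the 4x hybrids to that of the parents.

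The transcript was high, and similar, in both parents. The intensities were 838, 1472 and 841 in PG-F9 and 1510.04, 1407 and 889 in 12P, with a median of 1148 over the 6 arrays. The highest negative controls were somewhat higher in PG-F9 (105 to 128) than in 12P (74.5 to 81.5), and TC177538 was at least 7.13 times as bright as these controls in both parents.

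**Figure D1:**
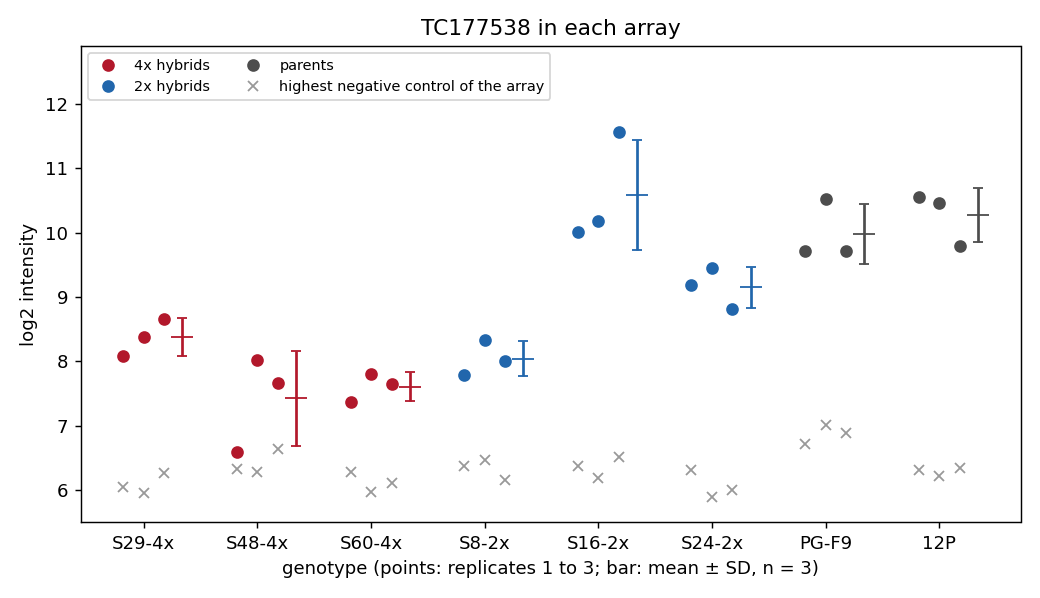
Log2 intensity of TC177538 in the 24 arrays by genotype, with the mean and SD of the 3 replicates beside the points and the highest negative control of each array as a cross. The 9 arrays of the 4x hybrids lie below the 6 parental arrays, the 2x hybrids spread from S8-2x at 8.04 to S16-2x at 10.58, and S48-4x replicate 1 is just above its controls.

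Ordered by the mean log2 intensity (± SD, n = 3 arrays each), S16-2x was highest at 10.58 ± 0.85, followed by 12P at 10.27 ± 0.41 and PG-F9 at 9.98 ± 0.47. The arrays of these 3 genotypes overlapped, and their order was not resolved. S24-2x came next at 9.15 ± 0.32, separated from PG-F9 above it and from S29-4x below it without overlap of arrays. The share of all genes separated in this way was not computed for these pairs. In pairs of sibs, 3 arrays against 3, it was 12.7% to 15.4%, so such separation is not rare. S29-4x (8.38 ± 0.29), S8-2x (8.04 ± 0.27), S60-4x (7.61 ± 0.23) and S48-4x (7.43 ± 0.74) followed, and in this lower part each genotype overlapped with the next. The highest and the lowest mean differed by 3.16 on the log2 scale, an 8.92-fold difference in intensity. The range of the genotype means was as large in 1.26% of all genes, and its median over all genes was 0.74. Differences between genotypes made up 89.1% of the sum of squares of the log2 values, a share reached or exceeded by 5.47% of all genes. The range and this share include the differences that chose the gene, so nothing is read from its place among all genes.

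The mean of the 9 arrays of the 4x hybrids was 7.80 ± 0.60 (SD) and that of the 6 parental arrays 10.13 ± 0.43, a log2 difference of -2.32 (SE 0.265). The intensity in the 4x hybrids was therefore 20.0% of the parental level. The study compared equal amounts of total RNA per sample, so this percentage is relative to total RNA and is not a level per cell. As leaves were measured in bulk, less RNA per cell and fewer cells that hold it cannot be told apart. The SE takes each array as an observation, while the 4x hybrids are 3 clones and the parents 2. Every 4x array lay below every parental array, with a gap of 1.05 between the groups on the log2 scale. Of all genes, 1.83% were separated in this way, and 1.36% met the thresholds for differential expression used here (an absolute log2 difference over 1 and an adjusted p under 0.05). Because this comparison chose the gene, nothing is read from its place among these genes.

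Taken singly, the log2 difference from the parents was -1.75 (SE 0.255) in S29-4x, -2.70 (SE 0.338) in S48-4x and -2.52 (SE 0.247) in S60-4x. These genotypes had 29.7%, 15.4% and 17.4% of the parental level. Without replicate 1 of S48-4x, the array near background, the difference of this hybrid was -2.29, which lies between those of S29-4x and S60-4x. Complete separation of the hybrid from the parents, with the hybrid lower, was found for 6.28% of all genes in S29-4x, 7.87% in S48-4x and 7.51% in S60-4x, so that with 3 arrays against 6 it is not rare.

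Over the 2x hybrids the mean was 9.26 ± 1.20 (SD, n = 9 arrays), compared with 10.13 ± 0.43 (n = 6) in the parents, a log2 difference of -0.87 (SE 0.472). The sibs differed in their position. S8-2x was lower than the parents by a log2 difference of -2.09 (SE 0.253), at 23.5% of their level, and S24-2x by -0.98 (SE 0.259), at 50.8%. Both lay entirely below the parents, as did 3.73% of all genes in S8-2x and 6.52% in S24-2x. S16-2x, with a log2 difference of 0.46 (SE 0.364), overlapped with the parents. Without its replicate 3 the difference was -0.03, and the arrays that were left were at the parental level. The difference of the 2x hybrids from the parents was -0.26 with S8-2x left out and -1.53 with S16-2x left out.

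Measured against each parent by itself, the positions of the hybrids were similar, as the parents had nearly the same level. The hybrid minus PG-F9 was -1.61 in S29-4x, -2.56 in S48-4x, -2.38 in S60-4x, -1.94 in S8-2x, 0.60 in S16-2x and -0.83 in S24-2x on the log2 scale. From 12P, these differences were -1.90, -2.85, -2.66, -2.23, 0.31 and -1.12 in the same order. In all hybrids but S16-2x the arrays lay below those of both parents, so these 5 hybrids were outside the parental range and not between the parents.

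**Figure D2:**
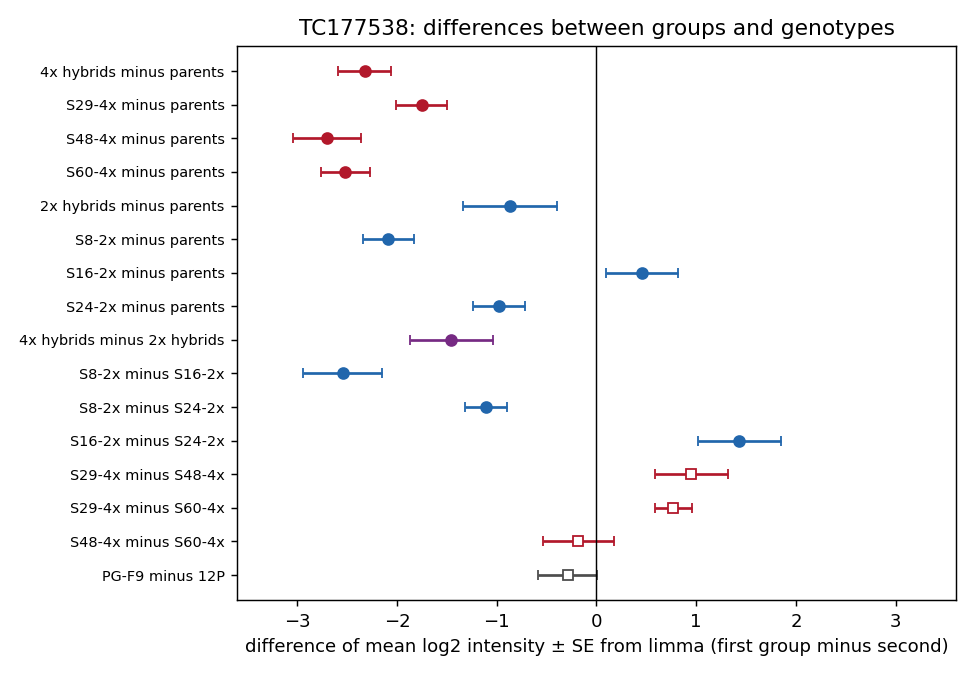
Differences of the mean log2 intensity of TC177538, first group minus second, with the SE from limma. Filled circles are described without a test, and open squares were tested. Each of the 4x hybrids and S8-2x lies more than 1.5 below the parents, and the difference between PG-F9 and 12P is small (-0.29).

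Among the 2x sibs the means of S8-2x and S16-2x differed by -2.54 on the log2 scale (SE 0.396), those of S8-2x and S24-2x by -1.11 (SE 0.211), and those of S16-2x and S24-2x by 1.43 (SE 0.418). Without S16-2x replicate 3 the last difference was 0.95. The arrays did not overlap in any of these pairs. Separation in the same direction was found for 13.4%, 15.1% and 15.4% of all genes in these pairs of 3 arrays against 3. The range of the 2x genotype means (2.54) was matched or exceeded by 0.616% of all genes, and was 2.05 without S16-2x replicate 3. As this spread chose the gene, nothing is read from its place among all genes. Among the 4x sibs the range of the means was 0.95, a size found in 7.49% of all genes. The smaller spread among the 4x sibs was not compared with that among the 2x sibs in a test, since the spread among the 2x sibs chose the gene.

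The 4x hybrids were lower than the 2x hybrids by a log2 difference of -1.45 (SE 0.415), with 7.80 ± 0.60 in 4x arrays and 9.26 ± 1.20 in 2x arrays (SD, n = 9 each), and the arrays overlapped. This difference shares its arrays with those that chose the gene and was not tested. It was -2.06 with S8-2x left out and -0.79 with S16-2x left out, so its size was set largely by which 2x sibs were included. The mean of S24-2x, the 2x hybrid in the middle (9.15), was above that of each 4x hybrid.

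The parents did not differ in TC177538 beyond the spread of their replicates. The mean log2 intensity was 9.98 ± 0.47 in PG-F9 and 10.27 ± 0.41 in 12P (SD, n = 3 arrays each), with a log2 difference of -0.29 (95% confidence interval from limma -0.98 to 0.40, adjusted p = 0.536). Between these parents 11.1% of all genes were differentially expressed. With each array left out in turn, the difference was between -0.56 (without PG-F9 replicate 2) and -0.14 (without 12P replicate 1). The interval leaves room for nearly a doubling in 12P over PG-F9.

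Among the 4x sibs, S29-4x had the highest level, and no pair met the thresholds. S29-4x exceeded S60-4x by 0.77 (95% confidence interval 0.33 to 1.21, adjusted p = 0.0791 from limma, unadjusted p = 0.0043), with 8.38 ± 0.29 in S29-4x and 7.61 ± 0.23 in S60-4x and no overlap of arrays. It exceeded S48-4x by 0.95 (95% confidence interval 0.08 to 1.82, adjusted p = 0.217 from limma), with 8.38 ± 0.29 in S29-4x and 7.43 ± 0.74 in S48-4x and again no overlap. Without S48-4x replicate 1, the array near background, this difference was 0.54. Separation in these directions was found for 12.7% and 13.6% of all genes, and the differentially expressed genes were 1.54% and 3.16% of all. S48-4x and S60-4x differed by -0.18 (95% confidence interval -1.02 to 0.66, adjusted p = 0.84 from limma), in a comparison in which 3.24% of the genes were differentially expressed. This last difference was 0.23 without S48-4x replicate 1, and -0.48 without S48-4x replicate 2, -0.30 without S48-4x replicate 3 or S60-4x replicate 1, and -0.08 without S60-4x replicate 2. The intervals are wide, and a log2 difference of 1 in size is within each of them.

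Replicates of the same clone varied more for TC177538 than for most genes. The SD within genotypes was 0.497 on the log2 scale, against a median of 0.25 over all genes, and was as large in 4.74% of them. This came mainly from a pair of genotypes, S16-2x with a 2.93-fold and S48-4x with a 2.69-fold difference between its highest and lowest array, whereas in the other genotypes the replicates differed between 1.36-fold and 1.76-fold. In these other genotypes the SD was still larger than that of 71.7% (S8-2x) to 88.3% (PG-F9) of all genes. S16-2x replicate 3 was 1.46 above the mean of the other replicates of its genotype, a deviation reached by 0.701% of all genes on that array, and S48-4x replicate 1 was 1.24 below, a deviation reached by 0.219%. Over all genes these arrays correlated with the other replicates of their genotypes at a mean r of 0.987 and 0.990, within the range of the 24 arrays (0.985 to 0.995). The highest negative control of S16-2x replicate 3 (6.51) was the highest of its genotype, and that of S48-4x replicate 1 (6.33) was in the middle.

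The genes with the pattern most like TC177538 were found by the Pearson correlation of log2 intensities over the 24 arrays, among 33091 genes with a genotype mean above the negative controls. The points share the arrays, their normalization and the 8 genotypes, so the coefficients are a description. The highest were TC179654 (r = 0.891), TC174394 (0.883), TC198895 (0.882), TC177443 (0.862), TC193243 (0.862) and TC182126 (0.861), none of which is named in the annotation used here. An r over 0.8 was found for 49 genes and one under -0.8 for 33. In these 6 genes the change was smaller. The log2 difference of the 4x hybrids from the parents was between -0.84 in TC177443 and -0.39 in TC193243, compared with -2.32 in TC177538. The correlation of replicate deviations from the genotype mean was 0.698 for TC179654, 0.741 for TC174394, 0.645 for TC198895 and 0.207 for TC182126. These deviations are part of the r over the 24 arrays that picked the genes. High values are thus favoured by the choice, and nothing further is read from them. When the 8 genotype means were correlated instead, none of these genes was among the 6 highest, and 3 were among the highest by Spearman's rho over the arrays.

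In the supplementary annotation, the genes most like TC177538 were TC189569 (r = 0.848), TC190837 (0.837), TC188448 (0.807) and TC176354 (0.807), which are described there only by a match to grape genomic scaffolds. TC189569 was at 9.01 in 4x hybrids, 10.20 in 2x hybrids and 10.32 in parents. Genes with a protein name were looked up after the values had been seen. The closest of these were TC174059, a DnaJ-like protein of the co-chaperone family (r = 0.791), TC176738, a membrane protein of the UPF0497 family (0.788), TC190612, annotated with an oligopeptide transporter domain (0.778), and TC178109, a pyruvate decarboxylase, an enzyme of ethanolic fermentation (0.771). TC176738 was at 8.32 in 4x hybrids, 9.70 in 2x hybrids and 10.19 in parents. Its 4x hybrids differed from the parents by -1.87, the nearest in size to that of TC177538 among the genes named here for likeness.

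The most opposite patterns were those of TC185205 (r = -0.886), TC195601 (-0.870), TC182482 (-0.865) and NP7274109 (-0.864). TC195601, a homolog of a cytochrome P450 enzyme of pea, was at 13.38 in 4x hybrids, 12.96 in 2x hybrids and 12.34 in parents. Among genes with a protein name, again looked up afterwards, it was followed by TC175076 and TC173435, both with a fasciclin domain known from cell surface adhesion proteins (r = -0.819 and -0.776), and by TC176090 (-0.805). The last is annotated with a response regulator receiver and a CCT domain, a combination known from clock-associated regulators, and was at 13.10 in 4x hybrids, 12.17 in 2x hybrids and 11.41 in parents, a 3.24-fold difference between 4x hybrids and parents.

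**Figure D3:**
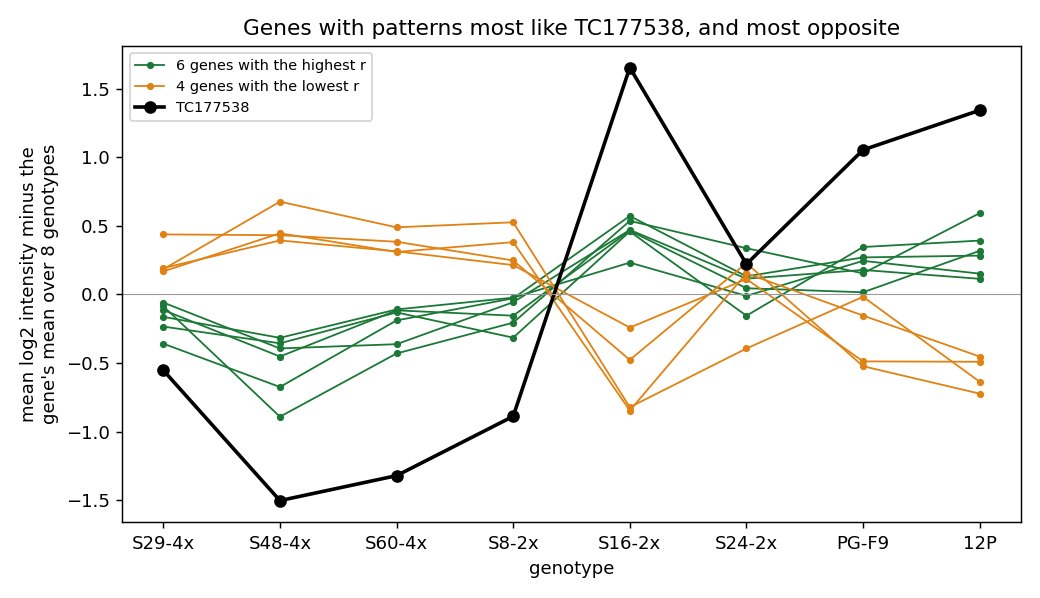
Mean log2 intensity by genotype, centred on the mean of each gene over the 8 genotypes, for TC177538, the 6 genes with the highest and the 4 with the lowest correlation with it over the 24 arrays. In the 6 genes with the highest r, S16-2x lies above the other 2x hybrids and the 4x hybrids lie low, as in TC177538, whose amplitude is the largest of the genes plotted.

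Other steps of methionine, sulfur and methyl metabolism were followed in 21 genes that the annotation of the study names. That annotation lists genes called in these same samples, so the list holds genes that differ between parents and hybrids or between ploidy levels by choice, and its counts in those comparisons are a description. Between the 4x hybrids and the parents 7 of the 21 genes met the thresholds, with 2 higher in 4x hybrids and 5 lower, against 0.766% and 0.597% of all genes in these directions. The median log2 difference of the list was -0.21, compared with -0.02 over all genes. Between the 2x hybrids and the parents 1 of 21 did, against 0.183% of all genes. Between tetraploid and diploid hybrids 15 of 21 did (6 higher and 9 lower in tetraploids), against 1.47% of all genes (0.824% higher and 0.648% lower). The median difference of the list was there -0.71, and -0.01 over all genes.

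Genes around the supply of methyl groups and sulfur moved in both directions. Both serine hydroxymethyltransferase homologs, which feed carbon into the folate pool, exceeded the parental level in the 4x hybrids. TC201467 had 12.53 in the 4x hybrids and 11.46 in the parents (log2 difference 1.07, SE 0.146), and TC200418 had 8.08 in the 4x hybrids and 6.58 in the parents (1.49, SE 0.288). Its mean in 12P (6.17) was below the highest negative controls of the 12P arrays and its mean in PG-F9 was within the range of those of the PG-F9 arrays, which limits the size of this difference. TC191986, a cysteine synthase homolog, was lower in the 4x hybrids, with 5.86 in the 4x hybrids and 6.93 in the parents (-1.07, SE 0.289), and its 4x mean was below that of the highest negative controls (6.32). TC195749, a high-affinity sulfate transporter homolog, was also lower on average, with 7.28 in the 4x hybrids and 8.66 in the parents (-1.38, SE 0.369). This did not hold for each 4x hybrid, as its mean was 7.01 in S29-4x and 6.72 in S48-4x but 8.11 in S60-4x, near PG-F9 (8.17). Its correlation with TC177538 over the 24 arrays (r = 0.706) was the highest in the list, and that of TC201467 (-0.673) the lowest. A second sulfate transporter homolog, TC196796, was higher in the 4x than in the 2x hybrids (log2 difference 1.20, SE 0.253), with a difference of 0.99 from the parents that did not meet the thresholds. TC180411, an aminomethyltransferase of the glycine cleavage system, was higher in the 4x than in the 2x hybrids by 1.30 (SE 0.269).

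Among the genes that use S-adenosylmethionine or its products, TC183723, an ACC oxidase homolog of the last step of ethylene synthesis, was lower in the 4x hybrids, with 6.58 in the 4x hybrids and 7.97 in the parents (log2 difference -1.39, SE 0.250). A second ACC oxidase homolog, TC200037, was at 7.89 in the 4x hybrids, 6.89 in the 2x hybrids and 7.74 in the parents. It spread from 6.88 in S29-4x to 8.80 in S48-4x, and its mean in S8-2x (6.26) was below that of the highest negative controls (6.32). The O-methyltransferase homologs TC176985, TC179845, TC193796 and TC195307 were lower in the 4x than in the 2x hybrids by log2 differences between -1.67 and -1.02. The mean of TC193796 in the 4x hybrids (6.09) and that of TC179845 in S48-4x (5.76) were below the highest negative controls, so their differences are limited by background. NP7255914, annotated as an O-methyltransferase of family 2, was higher in the 4x than in the 2x hybrids by 1.24. The cytosine-specific methyltransferase homolog TC176960, of the enzymes that methylate DNA, was at 11.44 ± 0.29 in 4x hybrids and 9.07 ± 0.35 in 2x hybrids (SD, n = 9 arrays each), a log2 difference of 2.37 (SE 0.147). Its pattern was unlike that of TC177538 (r = -0.359), with S8-2x (9.34) at the level of the other 2x hybrids and PG-F9 (11.84) above 12P (9.71).

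**Figure D4:**
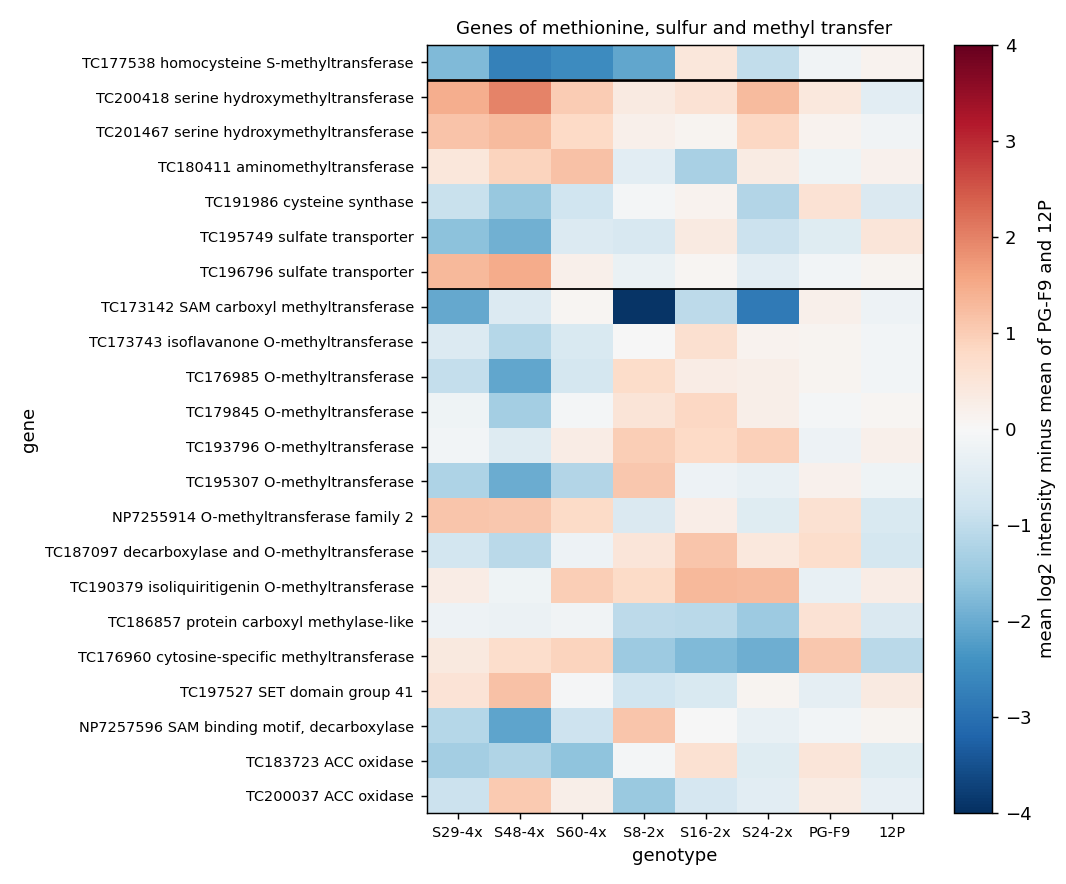
Mean log2 intensity of TC177538 and of 21 genes of methionine, sulfur and methyl metabolism in each genotype, minus the mean of PG-F9 and 12P. TC177538 is blue (below the parents) in all hybrids except S16-2x, and the genes under it hold rows that are red in the 4x hybrids, such as both serine hydroxymethyltransferases, as well as rows that are blue there, such as TC183723.

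The list was not chosen on the difference between the parents or on those among the 4x sibs, although the comparisons behind it share these arrays. Genes called in those comparisons may vary more than most genes. The counts of the list are therefore a description, and no enrichment is read from the shares of all genes beside them. Of the 21 genes, 3 differed between PG-F9 and 12P, all higher in PG-F9, against the 11.1% of all genes called in either direction. TC176960 differed by 2.13 (SE 0.264, adjusted p = 0.00182 from limma), TC187097, annotated with a decarboxylase and an O-methyltransferase domain, by 1.40 (SE 0.296, adjusted p = 0.0156, with a mean of 5.60 in 12P, below the negative controls, so that the size is limited by background), and TC186857, a protein carboxyl methylase-like gene, by 1.17 (SE 0.207, adjusted p = 0.00779). Among the 4x sibs, 2 of the 21 genes differed between S29-4x and S48-4x, against 3.16% of all genes, and 4 of 21 between S48-4x and S60-4x, against 3.24%. Between S29-4x and S60-4x limma called 0 of the 21, against 1.54% of all genes. An unadjusted p under 0.05 was found there for 9 of the 21 and for 19.6% of all genes. The sulfate transporter homolog TC195749 was lower in S48-4x than in S60-4x by -1.39 (SE 0.151, adjusted p = 0.00384 from limma), while TC177538 differed between them by -0.18. The ACC oxidase homolog TC200037 was lower in S29-4x than in S48-4x by -1.92 (SE 0.369, adjusted p = 0.0356 from limma), a pair in which TC177538 was higher in S29-4x by 0.95 without meeting the thresholds.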

How the data were processed

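Transcripts in leaves of 8 genotypes (3 replicates each) were measured on 24 one-colour arrays. The values deposited by the authors are intensities on the linear scale, already quantile normalized and with the probes of a gene combined by RMA in Nimblescan. The 11 negative controls served here only as a measure of background, and 41527 genes were taken to log2 without a filter. Array medians ranged between 499.3 and 527.7, and an array had 66.0% to 79.1% of its genes above the brightest negative control. For arrays, their number limits the precision.

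Fits were made in R 4.3.3 with limma 3.58.1 (lmFit, and eBayes with its default settings), unpaired, on the compared arrays alone, and p-values were adjusted by Benjamini-Hochberg over all genes. Differential expression meant an absolute log2 difference over 1 together with an adjusted p under 0.05. The code was tested on simulated data. Names were taken from the supplementary annotation of the study, which covers 955 of the genes, so other genes of the same pathway stay unnamed and leaf markers were not checked. The named genes are TC177538, 21 genes listed by annotation, and the genes most and least like TC177538 by correlation. Those with a protein name were added after seeing the data. The gene and the lists were chosen with earlier results of these data known. Columns with the study's own comparisons were not used.

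Alternatives were repeated quantile normalization, median centring, a floor (the percentile 5 of an array), trended and robust eBayes, omission of the dimmest genes (the lowest tercile of the mean), a block for the replicate number, 1 fit of all arrays with 8 genotype means, a parental mean on the linear scale, and omission of single arrays or genotypes. Plots used Python 3.11.15 and matplotlib 3.10.9.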

Additional observations from a re-analysis of the deposited data

How the results depend on the processing

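The difference of TC177538 between hybrids and parents kept its direction in all alternatives for the 4x hybrids, for each 4x hybrid, for S8-2x, S24-2x and the 2x hybrids together. For the 4x hybrids it was between -2.43 and -2.17 with each array left out, and between -2.61 and -2.14 in the other alternatives. For S16-2x it was between -0.03 and 0.74 with each array left out, with the sign turned without its replicate 3. None of the tested pairs met the thresholds in any alternative. The adjusted p from limma was between 0.203 and 0.815 for PG-F9 against 12P, between 0.108 and 0.411 for S29-4x against S48-4x, between 0.0486 and 0.33 for S29-4x against S60-4x, where the log2 difference stayed under 1, and between 0.421 and 0.961 for S48-4x against S60-4x. This last difference was between -0.48 and 0.23 with each array left out, with the sign turned only without S48-4x replicate 1. In the fit of all 24 arrays, 4 of the 21 listed genes differed between the 2x hybrids and the parents, compared with 1 in the fit of these groups alone, while the share of all genes called was 1.16% and 0.183% in these fits.

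Arrays with the same replicate number did not deviate together, as their residuals correlated at a mean r of -0.007 (84 pairs), against 0.003 for arrays with different numbers (168 pairs). With the replicate block the log2 differences are the same by construction (-0.29 for PG-F9 minus 12P, adjusted p = 0.424 from limma), and no call of a tested pair changed. Limits are the low signal in S48-4x replicate 1, 3 arrays per genotype, 3 genotypes per ploidy level, and probes designed on another species.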
